A study of Mus musculus with 2 samples.

Results

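Voltage-gated calcium, sodium and HCN (hyperpolarization-activated, cyclic nucleotide-gated) channels were examined as a gene family in the heart of the mouse embryo. The members are the protein-coding genes whose symbols name calcium channel, sodium channel or HCN subunits, and 44 genes met that rule among 22028 protein-coding genes in a table of 55536 genes. Of these, 24 code for pore-forming subunits and 20 for auxiliary subunits. The study sequenced RNA primed with oligo-dT from whole hearts of strain B6NCrl at embryonic day 12.5, in 2 libraries that are biological replicates of 1 group. Hearts of male and female embryos were pooled, the input was 10 ng of RNA a library, fragments came from Nextera tagmentation, and ERCC spike-ins (synthetic RNAs) were present, per the labels. The labels carry 1 donor identifier for both replicates beside separate biosamples, so how far the replicates are independent is not given in the sources used here.

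Calcium and sodium channels are each built around a large subunit that forms the pore and senses voltage. Calcium channels of the L-type admit the calcium that triggers contraction, T-type calcium channels open at lower voltages, sodium channels carry the upstroke of the action potential, and HCN channels carry the inward current of pacemaker cells. The beta, alpha2delta and gamma subunits of calcium channels, and the beta subunits of sodium channels, set how many channels reach the membrane and how they open and close.

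Expected counts on genes summed to 31394912 in replicate 2 and 34248993 in replicate 1, and the members took 0.0458% and 0.0434% of them. The 6 heart muscle markers were all detected, with a summed level of 21878 TPM (transcript abundance per length, scaled to a fixed total) in replicate 2 and 21740 TPM in replicate 1. Of 8 neuron markers 3 were detected, with summed levels of 13.0 and 14.7 TPM, and of 5 glia and neural crest markers 1 was detected, with summed levels of 4.11 and 3.54 TPM. Of 6 skeletal muscle markers 2 were detected, with summed levels of 10.6 and 12.3 TPM. Tnnt3 had 4.99 and 7.30 TPM, Actn3 3.20 and 3.28 TPM, Myog 1.67 and 0.96 TPM and Myod1 0.23 and 0.39 TPM. Of 4 smooth muscle markers 3 were detected, with summed levels of 1366 and 1303 TPM, and the other, Myh11, was higher in replicate 2, with 1.37 TPM against 0.58 TPM in replicate 1 (log2 ratio 1.23, adjusted p = 5.01e-10, exact binomial test). All 6 hepatocyte markers were lower in replicate 2, with a summed level of 36.2 TPM against 168 TPM in replicate 1, and the part of these markers in the levels below was not tested.

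Detection here means a TPM of 1 or more in each of the 2 libraries. By that measure 15 of 44 members (34.1%) were detected, against 56.6% of all protein-coding genes. The detected members were 7 of 24 pore-forming genes and 8 of 20 auxiliary genes. A further 3 members reached a TPM of 1 in 1 library, and 26 stayed under 1 in both, of which 3 had no count in either. Fewer cells that express a gene and less RNA of it per cell cannot be told apart in RNA of whole hearts.

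**Figure D1:**
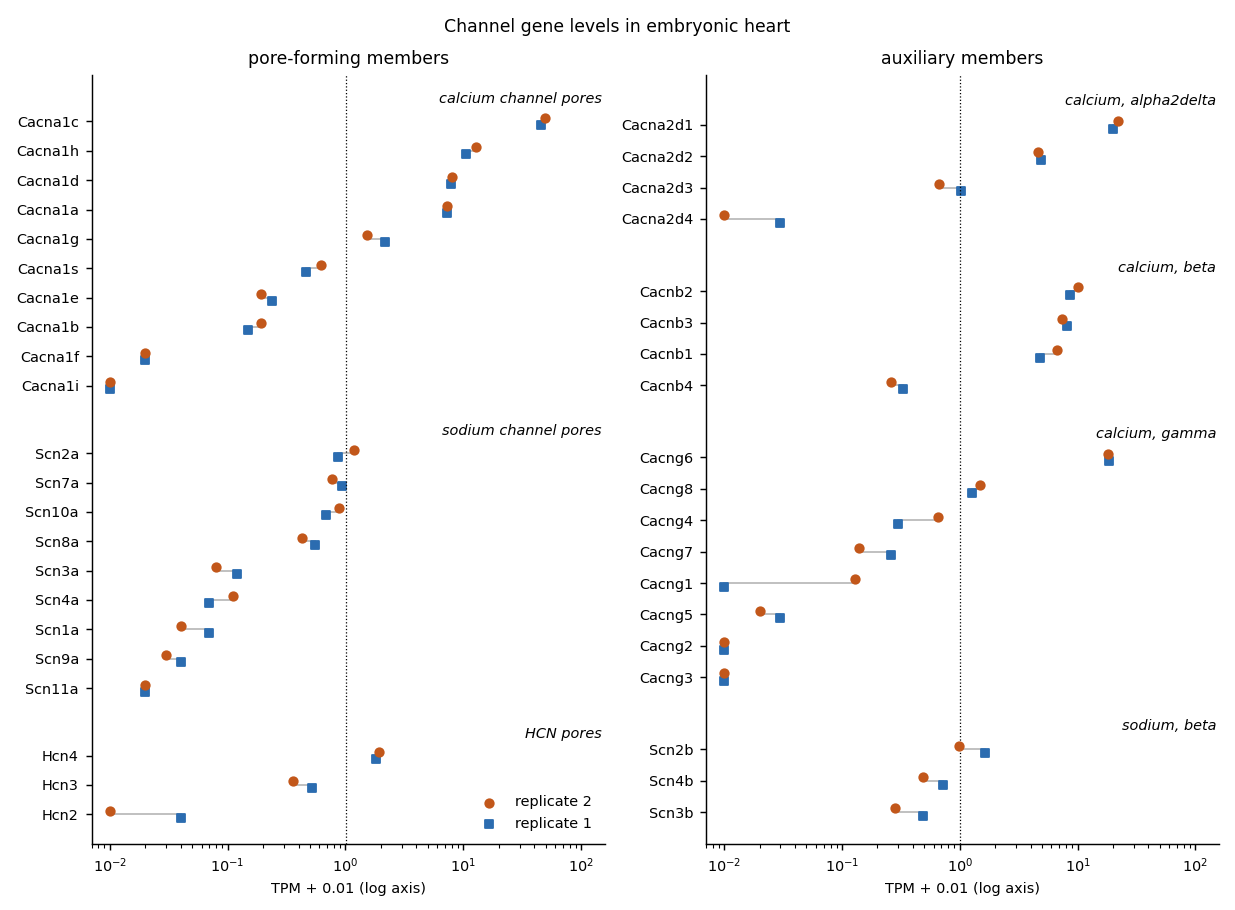
Level of 41 members in replicate 2 (circles) and replicate 1 (squares), as TPM with 0.01 added on a log axis, grouped by subunit class. The dotted line marks a TPM of 1. Cacna1c, Cacna2d1 and Cacng6 stand highest in their classes, and most neuronal members lie left of the line.

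Among the 10 calcium channel pore genes, 5 were detected. Cacna1c (ENSMUSG00000051331.15, chr6:118587240-119196418, minus strand, mm10), which codes for the L-type pore of working heart muscle, had 49.4 TPM in replicate 2, against 45.5 TPM in replicate 1, a mean of 47.4 ± 2.76 TPM (SD, n = 2). That mean is above those of 86.1% of protein-coding genes. Cacna1c held 61.8% of the summed TPM of its class in replicate 2 and 61.4% in replicate 1. Its counts were 3559 in replicate 2 and 3354 in replicate 1, the highest of any member.

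Transcripts of Cacna1c start at several places, and 2 RefSeq promoters (build GRCm38.p6, the mm10 assembly) are printed because most of its coding level came from models that start near them. Each window runs from 250 bases before the start to 50 bases from it on, in the direction of the gene, and capitals mark GGGCGG on either strand, the core of the binding site of SP1-type factors.
Cacna1c distal start, chr6:119196360-119196659, minus strand: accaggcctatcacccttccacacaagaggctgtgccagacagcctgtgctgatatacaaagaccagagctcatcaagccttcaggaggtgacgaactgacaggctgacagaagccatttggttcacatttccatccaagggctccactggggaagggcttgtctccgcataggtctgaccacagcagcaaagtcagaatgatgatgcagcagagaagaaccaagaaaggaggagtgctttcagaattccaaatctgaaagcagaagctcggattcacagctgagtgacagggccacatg
Cacna1c proximal start, chr6:119108446-119108745, minus strand: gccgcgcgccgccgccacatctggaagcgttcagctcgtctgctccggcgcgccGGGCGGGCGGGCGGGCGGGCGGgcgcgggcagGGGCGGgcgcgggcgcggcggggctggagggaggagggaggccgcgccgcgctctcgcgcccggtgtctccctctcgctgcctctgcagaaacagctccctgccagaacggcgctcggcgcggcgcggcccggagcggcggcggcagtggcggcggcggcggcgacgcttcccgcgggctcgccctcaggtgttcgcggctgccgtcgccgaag
Coding models within 500 bases of the distal start summed to 8.26 TPM in replicate 2, against 7.90 TPM in replicate 1, which is 69.7% and 82.4% of the coding level of the gene. Coding models at the proximal start summed to 2.15 TPM in replicate 2, against 1.16 TPM in replicate 1, or 18.1% and 12.1%. The distal start was thus the higher of the pair in both libraries. The remaining RefSeq start, inside the gene, held 1.27% in replicate 2 and 0.73% in replicate 1. The windows differ in composition, with 51.3% G and C in the distal one and 81.3% in the proximal one, beside a median of 52.7% over 32851 RefSeq promoters. GGGCGG was found 0 times in the distal window and 6 times in the proximal window, counting both strands and overlapping matches, and 35.7% of all promoters hold it. CANNTG, the E-box, was found 3 times in the distal window and 2 times in the proximal one, and 72.3% of all promoters hold it. TATAAA was in neither window, and 13.6% of all promoters hold it.

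Much of the Cacna1c gene level came from a model with no coding sequence. Cacna1c-218, a processed transcript of 4 exons and 954 bases that begins at the distal start, had 34.4 TPM in replicate 2, against 32.7 TPM in replicate 1. It held 69.6% of the gene's TPM in replicate 2 and 72.0% in replicate 1, but 655 of 3559 reads in replicate 2 and 690 of 3354 reads in replicate 1. Of its 954 bases, 745 lie in exons of coding models of the same gene and 209 do not. The main coding model, Cacna1c-207, had 6.34 TPM in replicate 2, against 5.25 TPM in replicate 1, with 1847 and 1690 reads. TPM divides reads by length, so a short model with few reads weighs heavily in a gene's sum. Summed over protein-coding models, Cacna1c had 11.8 TPM in replicate 2, against 9.59 TPM in replicate 1, a mean of 10.7 ± 1.60 TPM (SD, n = 2).

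Cacna1h, a T-type pore gene, was the next calcium pore gene, with 12.7 TPM in replicate 2, against 10.6 TPM in replicate 1. Coding models held 77.4% of that level in replicate 2 and 89.0% in replicate 1, nearly all of it in Cacna1h-205. Cacna1g, the other T-type pore gene detected, had 1.5 TPM in replicate 2, against 2.15 TPM in replicate 1, from 192 and 230 reads. The summed coding level of Cacna1h averaged 9.62 ± 0.276 TPM and that of Cacna1g 1.07 ± 0.0424 TPM (SD, n = 2 each). The third T-type gene, Cacna1i, had no count in either library. At the effective length of the gene, 3 counts would be 0.0452 TPM in replicate 2, against 0.0409 TPM in replicate 1. Its deposited intervals reached higher, to 1.38 TPM in replicate 2 and 1.26 TPM in replicate 1. T-type transcripts in this heart were therefore led by Cacna1h in both libraries.

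Cacna1d, the second L-type pore gene and one needed for the rhythm of the sinoatrial node, had 8.02 TPM in replicate 2, against 7.83 TPM in replicate 1. Its level was led by Cacna1d-205, a retained-intron model, with 43.1% in replicate 2 and 43.4% in replicate 1. The coding model Cacna1d-202 held 26.2% of its TPM in replicate 2 and 24.6% in replicate 1, but 403 of 635 reads and 408 of 679 reads. Coding models summed to 2.28 TPM in replicate 2, against 2.24 TPM in replicate 1. Of the coding level, 92.1% in replicate 2 and 85.7% in replicate 1 came from the model at the distal of the 2 RefSeq starts, whose window holds 40.3% G and C, against 87.3% in the other window. Of the distal start and the next start of Cacna1c and of Cacna1d, the one with less G and C carried more of the coding level. The remaining Cacna1c start, inside the gene, has 51.3% G and C in its window and carried the least of the 3.

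Cacna1a, the pore gene of the P/Q-type channels of nerve terminals, had 7.29 TPM in replicate 2, against 7.24 TPM in replicate 1. Most of this was again in models with no coding sequence: retained-intron model Cacna1a-207 held 54.3% in replicate 2 and 62.9% in replicate 1. Coding models of Cacna1a summed to 0.67 TPM in replicate 2, against 0.68 TPM in replicate 1, under the level set for detection. Cacna1s, the voltage sensor of skeletal muscle, had 0.61 and 0.45 TPM. Cacna1b and Cacna1e, of neuronal N-type and R-type channels, and Cacna1f, of the retina, ranged from 0.01 to 0.23 TPM over both libraries.

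Both L-type genes detected, Cacna1c and Cacna1d, carry a pair of exons of 104 bases that code for the end of the channel's first repeat. A transcript uses 1 or the other. The exons are printed because these genes differed in which exon was the more abundant. Capitals mark the bases that differ within a pair, and all are on the minus strand of mm10.
Cacna1c upstream exon, chr6:118742265-118742368: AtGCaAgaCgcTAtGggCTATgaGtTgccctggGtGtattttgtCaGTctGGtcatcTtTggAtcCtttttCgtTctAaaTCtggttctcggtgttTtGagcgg
Cacna1c downstream exon, chr6:118741871-118741974: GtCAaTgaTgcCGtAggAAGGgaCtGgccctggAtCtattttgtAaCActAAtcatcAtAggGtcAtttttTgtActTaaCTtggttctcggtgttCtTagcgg
Cacna1d upstream exon, chr14:30171956-30172059: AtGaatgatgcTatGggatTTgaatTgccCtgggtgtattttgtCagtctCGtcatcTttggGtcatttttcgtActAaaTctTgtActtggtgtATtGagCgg
Cacna1d downstream exon, chr14:30171296-30171399: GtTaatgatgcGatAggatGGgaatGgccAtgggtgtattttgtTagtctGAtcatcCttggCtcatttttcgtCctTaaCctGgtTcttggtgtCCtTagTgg
In Cacna1c the upstream exon was in 77.6% of the coding TPM in replicate 2 and 85.0% in replicate 1, a mean of 81.3 ± 5.20% (SD, n = 2). In Cacna1d the upstream exon was in 6.14% in replicate 2 and 9.38% in replicate 1, a mean of 7.76 ± 2.29% (SD, n = 2), and the downstream exon in the rest. The values of the genes did not overlap. All of the Cacna1d upstream share lay in Cacna1d-209, with 25.3 reads in replicate 2 and 41.8 reads in replicate 1. The deposited posterior standard deviations of those reads were 13.3 in replicate 2 and 20.6 in replicate 1. The exons of a pair differ at 32 of 104 bases in Cacna1c and at 22 of 104 in Cacna1d. Across the genes, the upstream exons differ from each other at 14 bases and the downstream exons at 21, fewer than the 26 and 29 differences between unlike exons. The more abundant exon was therefore the upstream one in Cacna1c and the downstream one in Cacna1d, although each has a closer relative at the same place in the other gene.

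A further 2 pairs of Cacna1c exons were split between versions. Their shares are of the TPM of coding models with 1 exon of the pair. Coding models annotated with both exons, 2 for the 60-base pair and 3 for the 84-base pair, were left out. The 60-base pair, which lies in the third repeat, had its upstream exon in 34.4% in replicate 2 and 40.4% in replicate 1. The 84-base pair, in the fourth repeat, had its upstream exon in 76.3% in replicate 2 and 69.5% in replicate 1. These shares rest on the authors' assignment of reads to whole models, since reads across single junctions were not analysed here.

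**Figure D2:**
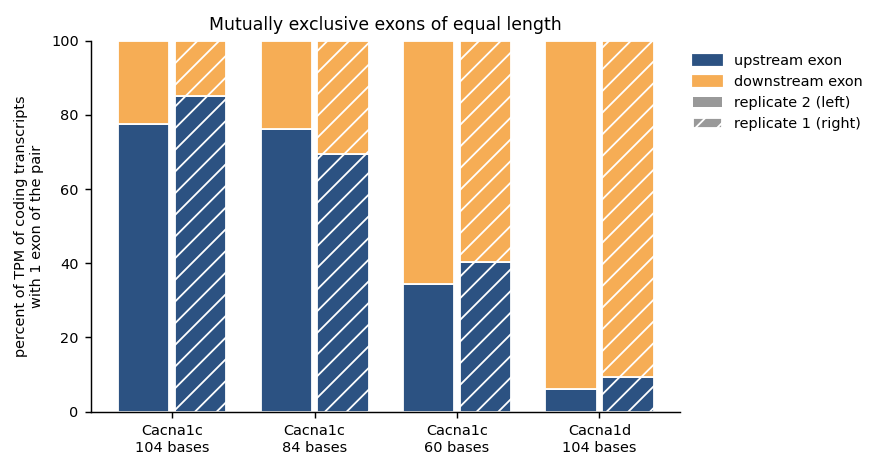
TPM of coding transcripts with 1 exon of a pair of equal length, as the share with the upstream (dark) or downstream (light) exon. The 4 pairs are shown with replicate 2 as the left bar (plain) and replicate 1 as the right bar (hatched). The upstream exon holds 77.6% and 85.0% in the 104-base pair of Cacna1c, against 6.14% and 9.38% in that of Cacna1d.

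Of the alpha2delta genes, whose products lie outside the membrane and raise channel number, 2 of 4 were detected. Cacna2d1 (ENSMUSG00000040118.15), which codes for a binding target of gabapentin, had 21.9 TPM in replicate 2, against 19.9 TPM in replicate 1. By gene level on annotation M21 it was the highest auxiliary gene, while Cacng6 was above it by coding models, and on the older annotation M4 too, with 18.8 and 19.2 TPM against 10.5 and 11.3 TPM for Cacna2d1. Its coding models summed to 11.3 TPM in replicate 2, against 11.8 TPM in replicate 1, and retained-intron model Cacna2d1-211 held 46.2% and 39.4% of the gene's TPM. Cacna2d2 had 4.63 TPM in replicate 2, against 4.85 TPM in replicate 1. Cacna2d3 had 0.66 TPM in replicate 2, against 1.01 TPM in replicate 1, from 31 and 60 reads. Cacna2d4, which lies 40.1 kb from Cacna1c on chromosome 6, had 0 reads in replicate 2 and 1 read in replicate 1.

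Of the beta genes, whose products bind the pore subunit inside the cell, 3 of 4 were detected. Cacnb2, the beta gene best known from heart, had the highest gene level of the 4, with 10.1 TPM in replicate 2, against 8.62 TPM in replicate 1. Yet only 11.0% of it in replicate 2 and 15.2% in replicate 1 lay in coding models, which summed to 1.11 and 1.31 TPM. Retained-intron models of Cacnb2 took 449 of its 566 reads in replicate 2 and 422 of its 542 reads in replicate 1, so here the reads as well as the TPM lay outside coding models. The leading one, Cacnb2-204, has 3457 bases, of which 380 lie in coding exons. Exons of 3 genes on the other strand overlap those of Cacnb2, the longest overlap being 618 bases with Gm10849, which had 62.0 and 88.4 reads, and their part in these values was not tested. Cacnb3 had 7.40 TPM in replicate 2, against 8.07 TPM in replicate 1, and its coding models 6.72 and 7.28 TPM. Cacnb1, the beta subunit of skeletal muscle, had 6.64 TPM in replicate 2, against 4.75 TPM in replicate 1, and its coding models 5.80 and 4.44 TPM. Cacnb4 had 0.25 and 0.32 TPM. By gene level Cacnb2 led the beta genes in both libraries, and by coding level Cacnb3 did, with 48.4% of the class in replicate 2 and 54.6% in replicate 1.

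The gamma genes were dominated by 1 member. Cacng6 (ENSMUSG00000078815.8, chr7:3424195-3435667, plus strand) had 18.0 TPM in replicate 2, against 18.4 TPM in replicate 1, a mean of 18.2 ± 0.276 TPM (SD, n = 2), and both of its models are coding. It held 88.3% of the summed TPM of the 8 gamma genes in replicate 2 and 91.0% in replicate 1. The closest relative of Cacng6 in function, Cacng1, the gamma subunit of the skeletal muscle channel, had 3 reads in replicate 2 and 0 reads in replicate 1. Cacng8, whose product is best known as a partner of AMPA receptors, had 1.48 TPM in replicate 2, against 1.25 TPM in replicate 1, from 22 and 21 reads. The remaining gamma genes, most of them also partners of AMPA receptors, stayed low: Cacng4, Cacng7 and Cacng5 ranged from 0.01 to 0.65 TPM, and Cacng2 and Cacng3 had no count. For Cacng2, 3 counts would be 0.0248 TPM in replicate 2, against 0.0225 TPM in replicate 1, and for Cacng3 0.097 and 0.0877 TPM. The deposited intervals of Cacng2 reached 0.0241 and 0.0219 TPM, and those of Cacng3 reached higher, to 0.302 and 0.275 TPM. Cacng7, Cacng8 and Cacng6 lie side by side within 103 kb of chromosome 7, with mean levels of 0.19, 1.36 and 18.2 TPM in that order along the plus strand.

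Most sodium channel pore genes are known from nerve and skeletal muscle, and those described here were low. Scn2a had 1.16 TPM in replicate 2, against 0.86 TPM in replicate 1, of which retained-intron model Scn2a-209 held 70.9% and 80.8%, and its coding models had 0.22 and 0.16 TPM. Scn7a, an atypical member that senses sodium level, had 0.76 TPM in replicate 2, against 0.92 TPM in replicate 1, all of it in its 1 coding model. Scn10a, a gene of sensory neurons, had 0.87 TPM in replicate 2, against 0.67 TPM in replicate 1, all in coding models, from 125 and 106 reads. Scn11a, also of sensory neurons, had 1 read in each library. Scn8a had 0.42 and 0.54 TPM, and Scn4a of skeletal muscle, with Scn1a, Scn3a and Scn9a of neurons, ranged from 0.02 to 0.11 TPM. The cluster of 5 sodium channel genes on chromosome 2 (Scn3a, Scn2a, Scn1a, Scn9a and Scn7a, chr2:65457118-66784914) held no detected member.

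Sodium channel beta subunits are small adhesion-like proteins that modulate the pore. Scn2b had 0.97 TPM in replicate 2, against 1.64 TPM in replicate 1, from 84 and 157 reads. Scn4b, which lies 8.32 kb from Scn2b on chromosome 9, had 0.48 TPM in replicate 2, against 0.71 TPM in replicate 1, and Scn3b had 0.27 and 0.48 TPM. Scn2b differed between the libraries at an adjusted p under 0.05, as given below.

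Of the 4 HCN genes, Hcn4, the main HCN gene of the sinoatrial node, was detected. Hcn4 (ENSMUSG00000032338.9, chr9:58823412-58863175, plus strand) had 1.93 TPM in replicate 2, against 1.80 TPM in replicate 1, a mean of 1.86 ± 0.0919 TPM (SD, n = 2), from 259 and 268 reads in its 1 coding model. It held 80.4% of the summed TPM of the class in replicate 2 and 74.1% in replicate 1. Hcn3 had 0.35 TPM in replicate 2, against 0.51 TPM in replicate 1, and Hcn2 had 0 reads in replicate 2 and 2 reads in replicate 1. Exons of Hcn3 overlap those of Pklr on the other strand over 711 bases, and Pklr had 71.2 and 139 reads. Of 44 members 12 overlap exons of another gene, and for 6 of them that gene had reads. Whether counting used strand is not given in the sources used here, so such reads cannot be told apart.

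Of the detected pore genes described here, the order by gene level was Cacna1c, Cacna1h, Cacna1d, Cacna1a, Hcn4 and Cacna1g. The ranges over both libraries overlapped between Hcn4 and Cacna1g, and no others of these neighbours overlapped. By coding level it was Cacna1c, Cacna1h, Cacna1d, Hcn4 and Cacna1g, with overlap between Cacna1c and Cacna1h. The auxiliary genes followed the order Cacna2d1, Cacng6, Cacnb2, Cacnb3, Cacnb1, Cacna2d2 and Cacng8 by gene level, with overlap between Cacnb1 and Cacna2d2. By coding level, over all auxiliary members, detected or not, Cacng6 had rank 1 and Cacnb2 rank 9, the last of those listed. In that order Scn2b stood between Cacng8 and Cacnb2, and its range overlapped those of both. The ranges of Cacnb1 and Cacna2d2 overlapped by coding level too. The summed coding level of the 10 calcium pore genes was 26.4 TPM in replicate 2, against 23.4 TPM in replicate 1, while their gene levels summed to 79.9 and 74.1 TPM.

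**Figure D3:**
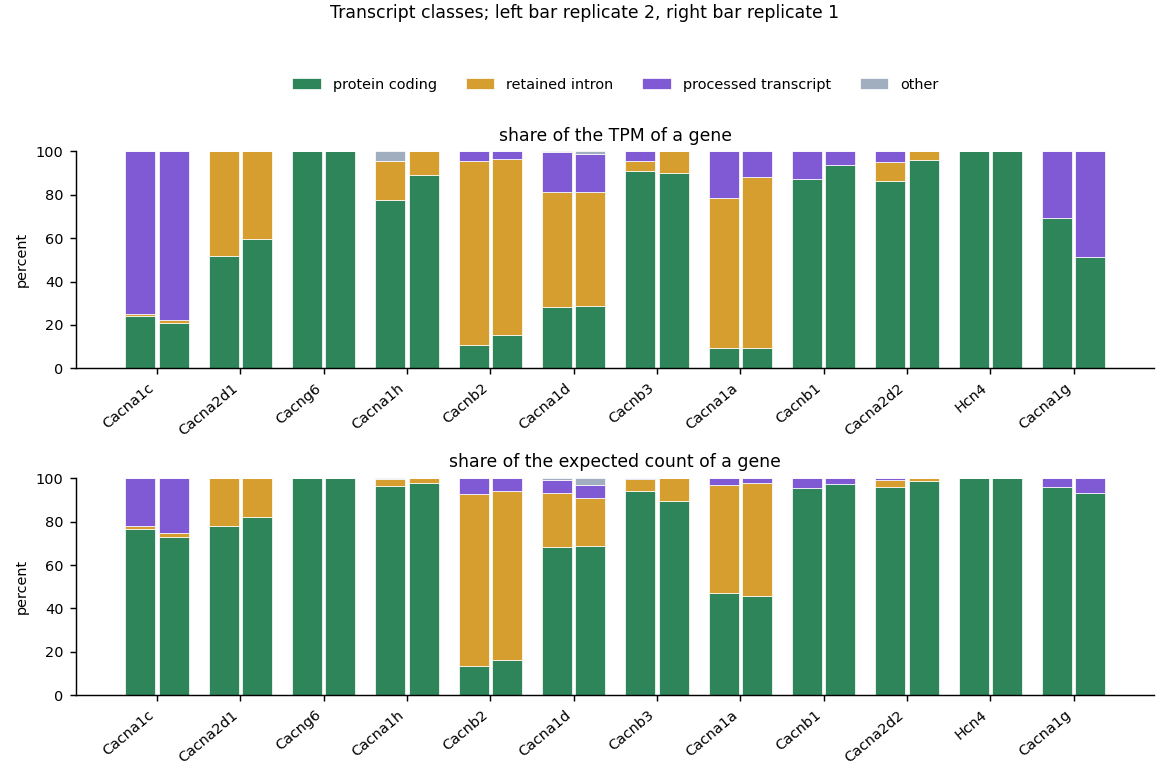
Share of the TPM (top) and of the expected count (bottom) of the detected members described here, with at least 50 reads each, that lies in models of each annotated class, with replicate 2 as the left bar and replicate 1 as the right bar. Coding models hold 24.0% and 21.1% of the TPM of Cacna1c, and 11.0% and 15.2% of that of Cacnb2, while Cacng6 and Hcn4 are coding almost throughout.

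Coding models held under 50% of the gene's TPM in both libraries in 4 of the 15 detected members, Cacna1a, Cacna1c, Cacna1d and Cacnb2, against 8.54% of all detected protein-coding genes. By reads, coding models of Cacna1c held more than that in both libraries, and so did those of Cacna1d. Of 26 members with at least 50 reads in all, 20 had the same leading model in both libraries, against 91.1% of all such protein-coding genes, and the leading model was not coding in 6 of the 20. These 6 were Cacna1a, Cacna1c, Cacna1d, Cacna2d1, Cacnb2 and Scn2a. A single model held over 90% in both libraries in members that included Scn7a, Hcn4, Scn2b and Scn4b. The leading model held under 50% in both in Cacna1d, Cacna1s, Cacna2d1 and Cacnb2. In Cacna1s it was the coding model Cacna1s-202, with 35.0% in replicate 2 and 30.2% in replicate 1.

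The leading model differed between the libraries in 6 members, Cacna1e, Cacna1g, Scn10a, Cacna2d3, Cacnb4 and Scn3b. In Cacna1g it was Cacna1g-203 in replicate 2, with 38.5% against 6.46% in replicate 1, and Cacna1g-205 in replicate 1, with 29.0% against 30.4% in replicate 2. In Scn10a, Scn10a-202 held 53.0% in replicate 2 and 41.2% in replicate 1, and Scn10a-201 held 47.0% and 58.8%. In Cacnb4, Cacnb4-202 held 56.7% in replicate 2 and 26.6% in replicate 1. In Scn3b, Scn3b-202 held 100% in replicate 2 and 0% in replicate 1. In Cacna1e, Cacna1e-207 held 50.5% in replicate 2 and 14.7% in replicate 1, and in Cacna2d3, Cacna2d3-205 held 39.2% and 29.6%. All 6 had at most 422 reads over both libraries. Assignment of reads to single models was less certain than to genes. In replicate 2, Scn10a-202 had 67.6 reads with a deposited posterior standard deviation of 22.8, and Scn10a-201 had 57.4 reads with 22.6. Scn3b-202 had 24 reads in replicate 2 with a deviation of 5.17, and 0 reads in replicate 1 with 5.33. Whether the leading models of these 6 members differ beyond this uncertainty was not tested.

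The deposited tables also place the same reads on an older annotation, M4, and 4 of 17 members with a mean TPM of at least 1 in either table differed by 1.5-fold or more, against 6.05% of all such protein-coding genes. All 4 were higher on M21, the newer annotation. Cacna1d had 8.02 and 7.83 TPM on M21, against 3.12 and 2.96 TPM on M4, in replicates 2 and 1 in that order. Cacna2d1 had 21.9 and 19.9 TPM on M21, against 10.5 and 11.3 TPM on M4. Cacng8 had 1.48 and 1.25 TPM on M21, against 0.26 and 0.24 TPM on M4. Scn2a had 1.16 and 0.86 TPM on M21, against 0.61 and 0.29 TPM on M4. Models of M21 that M4 lacks held 73.8% of the TPM of Cacna1d in replicate 2 and 75.4% in replicate 1, and 56.9% and 48.2% of that of Cacna2d1.

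**Figure D4:**
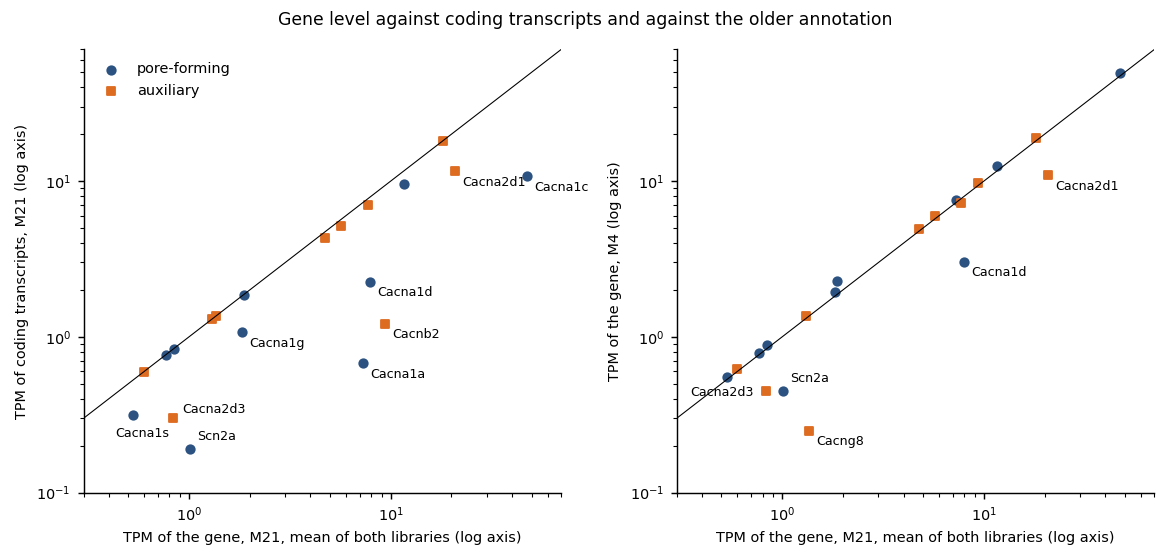
Mean gene TPM on M21 (x axis, log) against the mean TPM of coding models on M21 (left, log axis) and the mean gene TPM on M4 (right, log axis), for the members described here with a mean of at least 0.5 TPM. The line marks equal values. Cacna1c, Cacna1d, Cacna1a and Cacnb2 lie far under it on the left, and Cacna1d, Cacna2d1, Cacng8 and Scn2a on the right.

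Between the libraries, 32 members had at least 20 reads in all and were tested with an exact binomial test on counts, adjusted by the Benjamini-Hochberg method over 17970 genes. None met both an adjusted p under 0.05 and a log2 ratio of 1 or more in size, against 1.57% of all genes tested. An unadjusted p under 0.05 was found in 9 of the 32 (28.1%), against 22.5% of all genes tested. These were 2 of 18 pore-forming genes tested (11.1%) and 7 of 14 auxiliary genes tested (50%). With no fold threshold 3 of 32 passed (9.38%), against 10.0% of all genes. These included Cacna1c, with a log2 ratio of replicate 2 over replicate 1 of 0.20 (95% interval 0.13 to 0.27, adjusted p = 8.72e-07), and Scn2b, at -0.79 (-1.19 to -0.40, adjusted p = 0.0014). Its neighbour Scn4b had -0.61 (-1.14 to -0.10, adjusted p = 0.113) and did not pass. The median log2 ratio of the 32 was 0.03, and that of all genes tested -0.01. These tests cover counting error only and compare these libraries, not conditions.

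**Figure D5:**
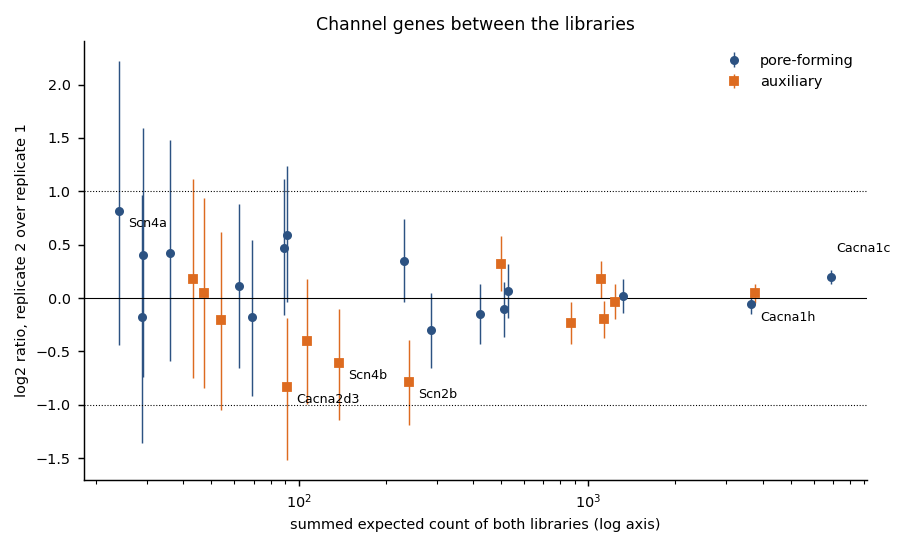
Log2 ratio of replicate 2 over replicate 1 with exact 95% intervals for 29 tested members, against the summed expected count on a log axis. Dotted lines mark a change of 1 on the log2 scale. Cacna1c sits at 0.20 with a short interval, and Scn2b at -0.79.

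Of 51 genes chosen as partners of these channels, with earlier results of these data known, 40 were detected. Of all protein-coding genes 56.6% were detected. None of the 46 partner genes tested was called between the libraries, against 1.57% of all genes tested. In the group of calcium release and removal 7 of 8 were detected, led by Pln, the inhibitor of the calcium pump, with 552 TPM in replicate 2, against 522 TPM in replicate 1. Atp2a2, the pump itself, had 323 and 332 TPM, and Trdn, which anchors the release channel complex, had 162 and 154 TPM. Ryr1, the release channel of skeletal muscle, was not detected, with 0.19 and 0.11 TPM. In the group of calcium channel partners 11 of 14 were detected, among them Calm2 and Rrad. Calm2, which codes for calmodulin, had 504 TPM in replicate 2, against 484 TPM in replicate 1. Rrad, a small G protein that binds beta subunits and lowers L-type current, had 232 TPM in replicate 2, against 236 TPM in replicate 1. Stac, Stac2 and Stac3, adaptors of L-type channels, ranged from 0.37 to 0.83 TPM and were not detected.

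All 13 sodium channel partners were detected. Pkp2, a desmosome protein, led them with 104 TPM in replicate 2, against 103 TPM in replicate 1, followed by Nedd4l, a ubiquitin ligase, with 59.6 and 53.3 TPM. Fgf13, an intracellular fibroblast growth factor homologue that binds the sodium channel tail, had 54.7 TPM in replicate 2, against 51.9 TPM in replicate 1. The other 3 genes of that family were lower, with Fgf12 at 4.04 and 6.53 TPM, Fgf11 at 1.77 and 1.87 TPM and Fgf14 at 1.23 and 1.29 TPM. Of HCN partners 4 of 5 were detected, led by Kctd3 with 22.4 TPM in replicate 2, against 21.9 TPM in replicate 1. Mrvi1 had 4.43 and 6.26 TPM and Lrmp 2.12 and 1.81 TPM. Coding models held 51.9% of the Lrmp level in replicate 2 and 16.6% in replicate 1. Pex5l, the brain partner of HCN channels also called TRIP8b, was not detected, with 0.08 and 0.05 TPM.

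Of 7 related channel genes 1 was detected, Hvcn1, a proton channel, with 2.17 TPM in replicate 2, against 1.39 TPM in replicate 1. Scnn1a, a subunit of the epithelial sodium channel, had 0.62 and 0.55 TPM, and Nalcn, Unc79, Unc80, Scnn1b and Scnn1g ranged from 0.01 to 0.14 TPM. All 4 transcription factors of pacemaker development were detected. Tbx3 had 16.4 TPM in replicate 2, against 14.7 TPM in replicate 1, Tbx18 had 16.1 and 14.8 TPM, Isl1 had 4.01 and 4.52 TPM, and Shox2 had 3.97 and 4.93 TPM. Each of these stood above Hcn4 in both libraries.

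Reads were assigned to member genes with little ambiguity. The deposited posterior standard deviation of the count was 0 in both libraries for 33 of 44 members, and its highest value was 4.58 reads, in Cacnb2. For 10 members the deposited TPM lay outside its own deposited interval in both libraries, and all 10 had few reads. Scn8a, with 20 and 16 reads, had 0.42 TPM in replicate 2 with an interval of 0.88 to 2.60 TPM, and 0.54 TPM in replicate 1 with an interval of 0.901 to 2.51 TPM. The levels of such members are given as values only. Cacna1h, with 1717 and 1934 reads, lay outside its interval in replicate 1 alone, at 10.6 TPM with an interval of 10.8 to 14.2 TPM.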

How the data were processed

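RNA primed with oligo-dT from whole embryonic heart was measured in 2 libraries of 1 group. Tables per gene and per transcript, on annotations M21 and M4 of build mm10, were deposited for both, per the labels. Expected counts in the deposited tables are reads shared out among features that they match. TPM in the deposited tables is abundance scaled by effective length, and FPKM in the deposited tables is scaled by length and read total, per the file headers. The percent column of the deposited transcript tables gives a transcript's share of its gene's TPM, per the file headers. For strand, aligner, counter and versions, nothing is given in the sources used here.

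Members were taken by symbol after matching gene identifiers to GENCODE M21. Rows with no gene name took 0.000117% of counts in replicate 2 and 0.000115% in replicate 1 and were left out. The members and lists were chosen with earlier results of these data known. Some members and partner genes are not reported here. Detected members and the highest of each class have values per library, and most others have ranges. Transcript shares are given where the leading model held under 50% or over 90% in both libraries, was not coding, or differed. Of partner genes, the 3 highest of a group and those not detected are named, and others beside them were chosen after their values were seen.

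Counts were rounded and scaled by TMM (edgeR 4.0.16). Genes with 20 or more counts in all had an exact conditional binomial test (two-sided, scipy 1.17.1), with 0.5 added for ratios and Benjamini-Hochberg adjustment. The check on simulated data used counting error alone, as the test assumes, so it does not cover other variation between libraries. Intervals and limits from 3 counts cover counting error only. Genes held 31394912 counts in replicate 2 and 34248993 in replicate 1. Promoter sequences are from RefSeq, with entries for 32 of 44 members, and exon sequences from the GENCODE M21 transcripts. Alternatives, among them DESeq2 1.42.0 size factors, changed the scaling, filters, detection level, annotation and test, and left out each library.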

Additional observations from a re-analysis of the deposited data

How the results depend on the processing

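The number of members detected, 15, was 9 at a TPM of 5, 31 at an expected count of 10, and 14 to 20 under a TPM of 0.5, the posterior mean TPM, FPKM, M4, coding models or 1 library alone. For pore-forming members, 7 in the main count, it was 17 at an expected count of 10. For auxiliary members, 8 in the main count, it was 4 at a TPM of 5 and 14 at an expected count of 10. Of 51 partner genes, 30 to 45 were detected under these settings. No member was called between the libraries under any scaling, filter, M4 or edgeR with an assumed dispersion, and 3 were with no fold threshold. Over all genes the count of 282 was 60 with at least 100 counts in all, 1799 with no fold threshold and 157 with edgeR. The median log2 ratio of members was -0.06 with at least 100 counts in all, on 19 members, and 0.02 to 0.04 otherwise. Cacna1c held 61.6% of its class, against 57.7% by posterior mean TPM, 53.2% by expected counts, 65.6% on M4 and 42.9% by coding models, a setting chosen after seeing the data. Hcn4 held 77.2% of its class, against 67.3% by posterior mean TPM. Without replicate 1 or replicate 2 these shares ranged from 61.4 to 61.8% for Cacna1c and 74.1 to 80.4% for Hcn4. Members detected numbered 16 to 17 with 1 library left out. Leading models were the same in both libraries in 20 of 26 members, by TPM and by expected count alike. The number was 15 of 17 with at least 200 counts in all, 24 of 32 with at least 20, and 21 of 25 on M4. With 1 group and replicate numbers that label its own 2 libraries, no comparison between groups exists. No paired analysis was possible because there is 1 group.

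The tests cover counting error only, and n is 2.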
